A study of Homo sapiens with 60 samples.

Results

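Aminoacyl-tRNA synthetases are the enzymes that join each amino acid to its transfer RNA before translation. The 35 genes described here were taken by name: 17 encode cytosolic enzymes, 2 (GARS1 and KARS1) encode enzymes that serve both compartments, and 16, with symbols ending in 2, encode mitochondrial enzymes. All 35 were found among the 60675 genes of the deposited table, under older symbols where needed (AARS for AARS1), and all 35 had enough reads to be tested.

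HT29 is an established cell line from a human colorectal adenocarcinoma, and 60 RNA-seq libraries were made from it after 24 h with 1 of 8 herbal extracts or with vehicle. Scutellariae Radix (the root of a skullcap), Zingiberis Rhizoma (dried ginger), Zingiberis Rhizoma Recens (fresh ginger) and Pinelliae Tuber were 70% ethanol extracts with 3 libraries at each of 20, 100 and 500 µg/mL, called low, medium and high dose. Coptidis Rhizoma (goldthread rhizome; 12.8, 64 and 320 µg/mL) and Zizyphi Fructus (jujube fruit; 20, 100 and 500 µg/mL) were ethanol extracts with 1 library per dose. Water extracts of 2 mixed-herb formulas were given at 20, 100 and 500 µg/mL, Sayeok-tang with 3 libraries per dose and Bojungikgi-tang with 2. The vehicle was DMSO, at 0.1% in the labels and 2% in the series text (n = 3). The vehicle libraries carry a sample code set of their own, so extract and code set cannot be told apart in any comparison with vehicle; high against low dose of 1 extract lies within a code set. Whether replicates came from separate cultures is not stated in the labels; the p-values rest on the spread among libraries, which may be technical.

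Libraries held 18016457 to 35819900 counts, and the 35 genes had 147 to 24168 counts per library. The epithelial markers EPCAM, LGALS4, KRT20 and VIL1 were present in every library, with medians of 537, 524, 262 and 181 CPM (counts scaled to the library's total). CDX1, CDX2, CDH17 and CEACAM5 were low, with medians between 1.12 and 5.80 CPM. PTPRC and CD3E, leukocyte markers, stayed below 0.1 CPM, and of the stromal markers COL1A2 and PDGFRB stayed below 0.14 CPM while PECAM1 reached 2.87 and COL1A1 2.23 CPM. Of the libraries used in the tests, 3 stood apart in composition: Scutellariae Radix low dose replicate 3 with 9.35% ribosomal protein reads, vehicle replicate 1 with 7.20%, and Pinelliae Tuber high dose replicate 2 with 14.3% mitochondrial reads. Among the single Coptidis Rhizoma libraries, mitochondrial reads made up 15.2% at low, 6.61% at medium and 3.44% at high dose. Tests of the members that rest on those 3 libraries are given with and without them, while tests of other gene lists are given with them only. Coptidis Rhizoma has 1 library per dose, so its ratio at a dose cannot be given without that dose's library. All ratios to the vehicle mean keep vehicle replicate 1.

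As background, most amino acids have a synthetase of their own, and cytosol and mitochondria mostly use separate genes. Several cytosolic enzymes sit in a multi-synthetase complex held by the scaffold proteins AIMP1, AIMP2 and EEF1E1. When amino acids run short or the endoplasmic reticulum is stressed, the transcription factor ATF4 raises many cytosolic synthetase genes together with genes of amino acid supply, while WARS1, the tryptophan enzyme, is also known as an interferon-gamma target.

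In vehicle-treated cells most cytosolic and dual genes stood above the mitochondrial ones. Per kilobase of transcript, the highest level was that of KARS1, the lysine enzyme, at 108 ± 3.92 CPM per kb (SD, n = 3), followed by IARS1 (isoleucine) at 70.2 ± 6.41 and GARS1 (glycine) at 69.6 ± 4.18, a pair that did not differ beyond their spread. The lowest cytosolic genes were FARSB, a subunit of the phenylalanine enzyme, at 23.9 ± 1.27 CPM per kb and CARS1 (cysteine) at 26.3 ± 0.408. The highest mitochondrial genes were IARS2 at 38.2 ± 0.626 and CARS2 at 24.0 ± 0.234 CPM per kb, and the lowest was PARS2 (proline) at 4.83 ± 0.056. IARS2 thus lay among the lower cytosolic genes, and its level did not differ from that of AARS1 (38.8 ± 2.10) beyond the spread. Summed over genes, the 17 cytosolic genes took 2737 ± 108 CPM, the dual genes 401 ± 18.8 CPM and the 16 mitochondrial genes 589 ± 16.1 CPM (SD, n = 3), and the ratio of the first to the last sum was 4.59 to 4.75 in single vehicle libraries.

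Promoter sequences are shown because many cytosolic members moved together in 3 extracts. RefSeq windows (GRCh38.p14, from 250 bases before to 50 after the annotated start) matched 30 of the 35 members, namely 14 cytosolic, 2 dual and 14 mitochondrial genes; AARS2, LARS1, VARS1, VARS2 and YARS1 had none. TGATGNAA, the form of the element that ATF4 and its C/EBP partners are known to bind, was searched on both strands, and so was the interferon-stimulated response element (GAAA, any 2 bases, GAAA). TGATGNAA stood in a window of 8 members: 6 of 14 cytosolic genes, GARS1 and 1 of 14 mitochondrial genes (YARS2); of the 27305 genes with windows 4.46% have it in at least 1. The 28-base stretches around it follow, 5′ to 3′ on the gene's strand, with the match in capitals; TTGCATCA and TTTCATCA are matches on the opposite strand.
AARS1: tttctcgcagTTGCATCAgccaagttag
CARS1: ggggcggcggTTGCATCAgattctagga
GARS1: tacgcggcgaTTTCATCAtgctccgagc
IARS1: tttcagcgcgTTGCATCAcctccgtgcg
MARS1: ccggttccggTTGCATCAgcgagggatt
NARS1: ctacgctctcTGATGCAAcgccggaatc
TARS1: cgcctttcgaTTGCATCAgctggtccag
YARS2: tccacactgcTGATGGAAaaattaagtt
They lie at chr16:70289676-70289703 on the minus strand (AARS1, alanine), chr11:3057408-3057435 minus (CARS1, cysteine), chr7:30594835-30594862 plus (GARS1, glycine), chr9:92293693-92293720 minus (IARS1, isoleucine), chr12:57488054-57488081 plus (MARS1, methionine), chr18:57621805-57621832 minus (NARS1, asparagine), chr5:33440957-33440984 plus (TARS1, threonine) and chr12:32756077-32756104 minus (YARS2, mitochondrial tyrosine). The form with C, TGATGCAA, is in 6 of the 8 (all but GARS1 and YARS2) and in windows of 1.08% of those genes. AARS1, among the members furthest above vehicle with Coptidis Rhizoma, has its match 187 bases before the start; its bases from 250 to 51 before the start (chr16:70289557-70289756, minus strand) are shown for context, with the same match in capitals.
AARS1 upstream: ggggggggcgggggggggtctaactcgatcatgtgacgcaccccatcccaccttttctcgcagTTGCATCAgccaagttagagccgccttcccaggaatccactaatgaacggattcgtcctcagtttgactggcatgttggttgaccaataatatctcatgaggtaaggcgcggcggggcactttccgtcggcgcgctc
The interferon element was found in windows of WARS1 and EARS2 (mitochondrial glutamate enzyme) and in windows of 4.38% of those genes. The WARS1 match, in capitals, begins 55 bases before an annotated start, in the stretch chr14:100375383-100375412 on the minus strand, and is shown because WARS1 had the largest log2 fold change or ratio of the members in the Scutellariae Radix, Zingiberis Rhizoma and Coptidis Rhizoma high-dose comparisons with low dose.
WARS1: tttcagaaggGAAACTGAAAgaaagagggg
A match is a run of letters in these windows and was not tested for binding.

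Coptidis Rhizoma gave the widest differences, in the libraries with no replicate: ratios to the vehicle mean are log2 of (CPM + 0.5), and the 95% intervals are exact binomial (Clopper-Pearson) and cover counting error only. At 320 µg/mL, 11 of 17 cytosolic genes and GARS1 lay more than 1.5-fold above vehicle, where 17.9% of the 16763 tested genes did, and 2 cytosolic genes (FARSA and VARS1) lay more than 1.5-fold below, where 15% of all genes did. None of the 16 mitochondrial genes lay above and 5 lay below that fold. The median log2 ratio was 1.14 over cytosolic and -0.30 over mitochondrial genes, against 0.04 over all genes. Summed levels were 2904, 4015 and 6021 CPM over the cytosolic genes at low, medium and high dose, and 574, 633 and 477 CPM over the mitochondrial genes. Their ratio was 5.06, 6.34 and 12.6 at the 3 doses, while the 54 libraries of the other extracts lay between 4.52 and 5.24.

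WARS1 had 88.2, 95.1 and 92.1 CPM in the vehicle libraries, then 102 CPM (97.5 to 107) at low, 164 CPM (159 to 170.3) at medium and 614 CPM (605 to 624) at high dose. Its log2 ratio at high dose, 2.74, was the largest of the members. SARS1, the serine enzyme, had 114.5, 210.4 and 449 CPM over the 3 doses, and AARS1 had 163, 288 and 541 CPM. All 3 genes lay above the vehicle libraries (106.5 to 111 CPM for SARS1, 126.5 to 139 CPM for AARS1) at every dose, by most at the high dose, and the low-dose interval of SARS1 (109.6 to 119.6 CPM) reached into the vehicle range. GARS1 reached 694 CPM (684 to 704) at high dose, against 172 to 194 CPM in vehicle, a log2 ratio of 1.92. IARS1 had the highest level at that dose, 948 CPM (936 to 960), against 294 to 352 CPM in vehicle.

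Other cytosolic genes above vehicle at high dose were CARS1 (log2 ratio 1.39), NARS1 (1.29), YARS1 (tyrosine; 1.24), MARS1 (1.20), TARS1 (1.14), EPRS1 (the bifunctional glutamate and proline enzyme; 1.12) and LARS1 (leucine; 0.82). MARS1 shares 355 exon bases on the opposite strand with DDIT3, a stress-response transcription factor gene, which had 109 CPM at high dose against 6.39 CPM in vehicle; no source used here gives the strand setting of the counting. Other genes differed little from vehicle: HARS1 (histidine; 0.03), the dual KARS1 (-0.02), RARS1 (arginine; -0.04) and QARS1 (glutamine; -0.08). FARSB (-0.32) and FARSA (-0.69), the paired subunits of the phenylalanine enzyme, were below vehicle. VARS1, the valine enzyme, was the furthest below of all 35, with 242 to 264.5 CPM in vehicle and 221, 258 and 92.0 CPM (88.3 to 95.8) at low, medium and high dose, a log2 ratio of -1.45 at high dose. IARS1, LARS1, MARS1 and EPRS1 of the multi-synthetase complex were thus above vehicle while KARS1, RARS1 and QARS1 of the same complex were near it.

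Mitochondrial genes at high dose ran from SARS2 (serine; 21.0 CPM, 19.3 to 22.9, against 39.5 to 43.7 CPM in vehicle; log2 ratio -0.99) to PARS2 (15.5 CPM, 14.05 to 17.1, against 11.2 to 11.5 CPM; 0.44). FARS2, with the fewest counts (147), had 5.77 CPM (4.87 to 6.78) against 10.4 to 10.9 CPM in vehicle. At high dose 7 of 16 mitochondrial genes lay below the lowest of the 57 libraries of other groups, 1 (PARS2) lay above the highest and 8 lay within; 11 of 17 cytosolic genes lay above that range and FARSA, FARSB and VARS1 below it. Of all 16763 genes 27.2% lay above and 17% below the range of those libraries. SARS2 shares 349 exon bases with MRPS12 on the opposite strand, EARS2 370 with UBFD1 and CARS2 326 with ING1, and the strand setting bears on these levels too.

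**Figure D1:**
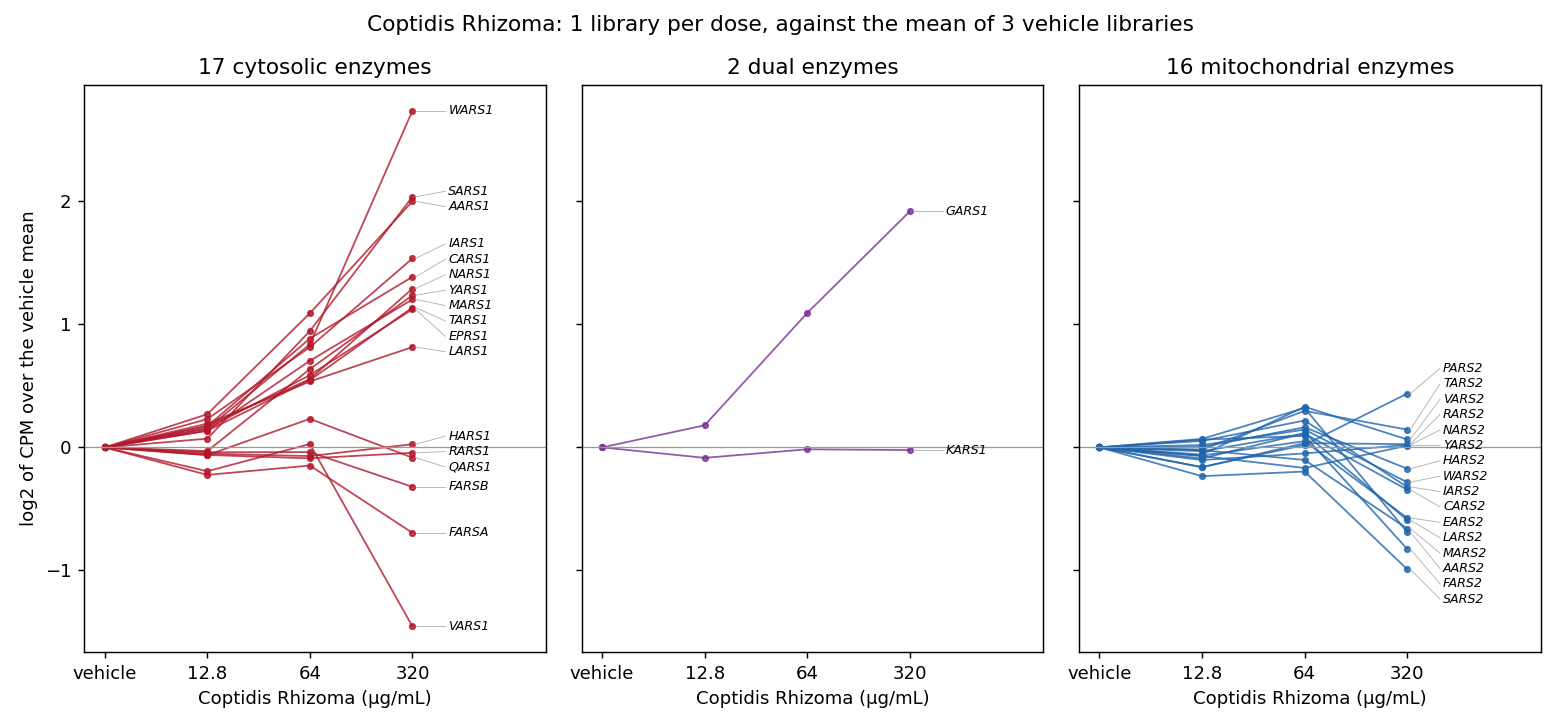
Log2 ratio of CPM to the vehicle mean (vertical axis) for each gene across vehicle and the 3 Coptidis Rhizoma doses in µg/mL (horizontal axis), 1 library per dose, with cytosolic, dual and mitochondrial genes in separate panels. At 320 µg/mL WARS1 reaches 2.74 and VARS1 -1.45, and the mitochondrial genes span -0.99 to 0.44.

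At 64 µg/mL, 8 of 17 cytosolic genes and GARS1 lay more than 1.5-fold above vehicle, where 4.72% of all genes did; 0 of 17 lay that far below, where 2.96% did. No mitochondrial gene passed the fold either way. At 12.8 µg/mL no member passed it, where 0.865% of all genes lay above and 2.38% below. Taken against the low-dose library, with no vehicle library involved, 11 cytosolic genes at high dose lay above 1.5-fold and 1 (VARS1) below, with a median of 1.00, and 1 mitochondrial gene lay above and 4 below, with a median of -0.31. Of all genes 19.9% lay above and 12.3% below that fold of the low dose, with a median of 0.12. With trimmed-mean (TMM) scaling the high-dose medians were 1.06 over cytosolic and -0.37 over mitochondrial genes. The part of the differing mitochondrial read shares in these ratios was not tested further. In the fit that set the 3 doses as 1 group against vehicle, with 6 libraries, 0 of 35 members and 4 of 15114 genes (0.0265%) passed an adjusted p under 0.05 (edgeR's quasi-likelihood test with Benjamini-Hochberg adjustment); at an unadjusted p under 0.05 there were 12 members. The smallest p-values there were those of CARS1 (log2 fold change 0.86 ± 0.25), AARS1 (1.25 ± 0.36), LARS1 (0.51 ± 0.15) and GARS1 (1.19 ± 0.36), each with an adjusted p of 0.403; the spread in this fit includes any effect of dose. With all 60 libraries in 1 fit, 16 members passed, 12 higher and 4 lower, where 16.5% of 15114 genes were higher and 14.1% lower; most of the spread in that fit comes from libraries of other groups.

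Against mitochondrial genes for the same amino acid, the cytosolic genes had the higher log2 ratio in 15 of 17 pairs at the high dose of Coptidis Rhizoma, with a median difference of 1.27. EPRS1 was paired with both EARS2 and PARS2, and FARS2 with both FARSA and FARSB, so the 17 pairs share genes. The exceptions were VARS1 with VARS2 and RARS1 with RARS2. Of the 16 cytosolic and dual genes with a promoter window, the 7 with the TGATGNAA match shown above all lay more than 1.5-fold above vehicle, from 1.14 (TARS1) to 2.00 (AARS1) on the log2 scale, with a median of 1.39. Of the 9 without the match, 3 lay above that fold (WARS1, SARS1 and EPRS1), and their median was -0.02. The mitochondrial YARS2 was at 0.01. Its match is not of the TGATGCAA form, and neither is that of GARS1, which was at 1.92. Over all genes 17.9% lay above that fold, and the share among all genes with the match was not counted. These counts describe 1 library and the letters of 1 window per start, and a relation of the match to the ratios was not tested.

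**Figure D2:**
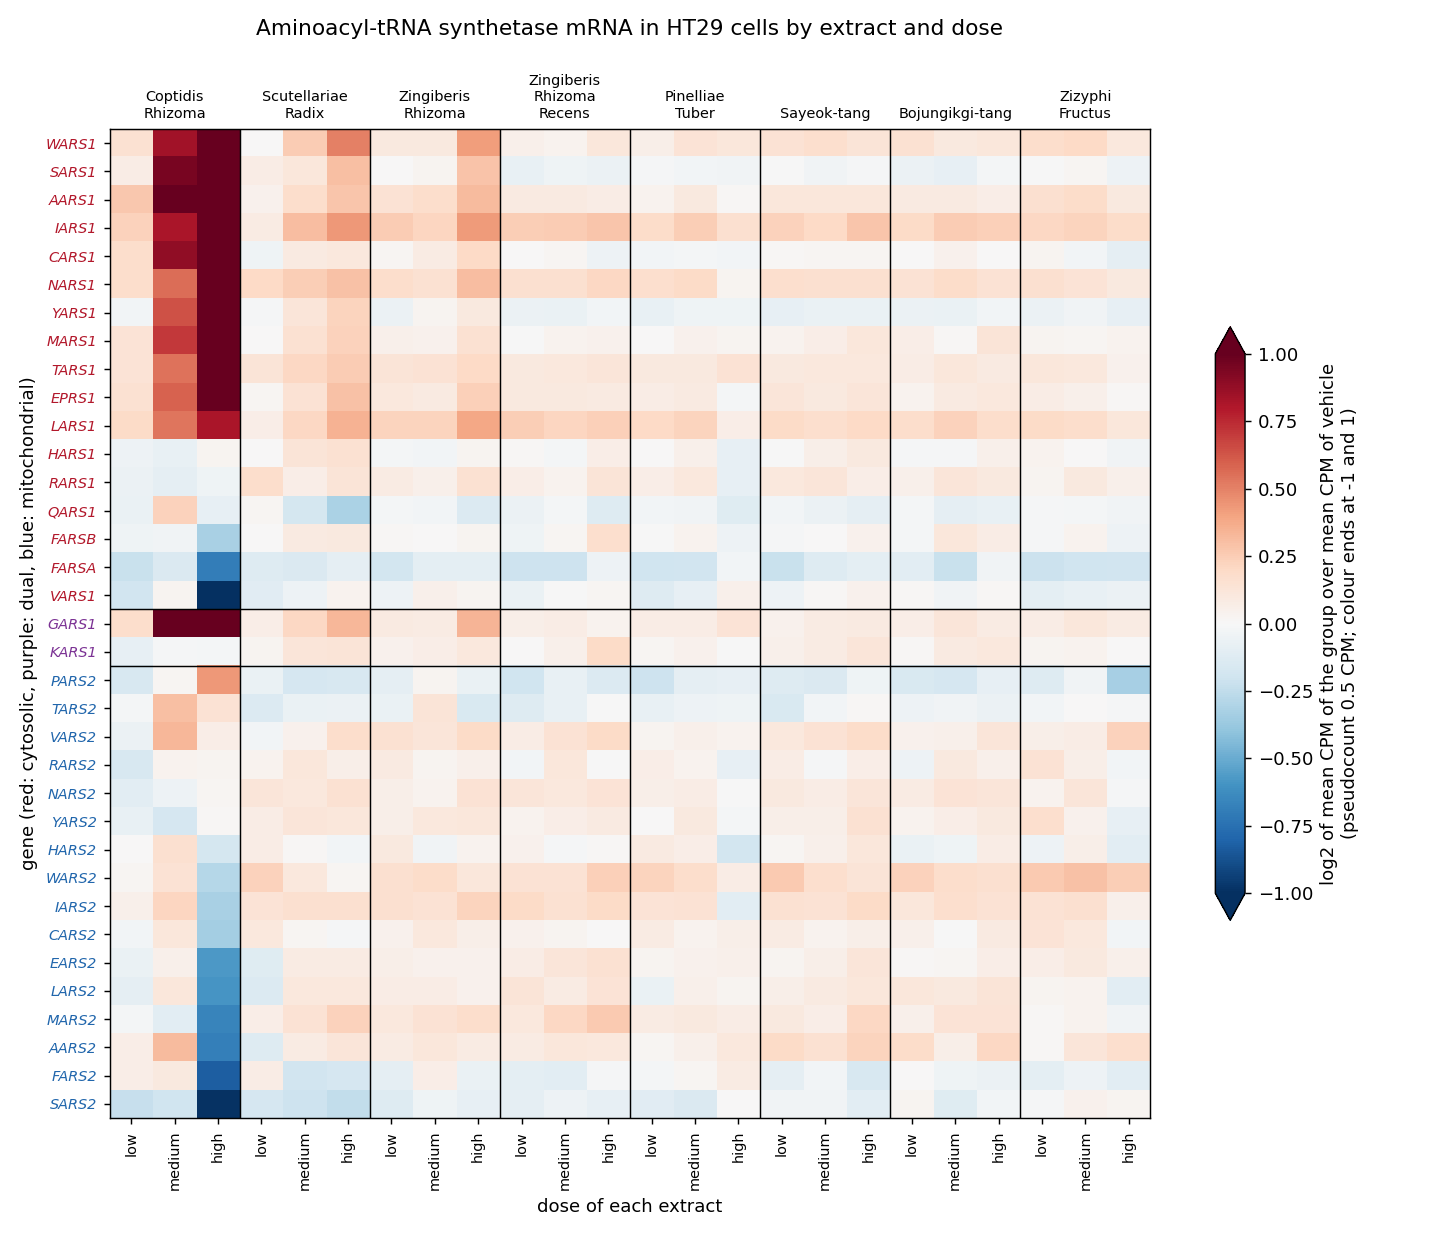
Log2 ratio of the mean CPM of each group to the vehicle mean (colour, which ends at -1 and 1) for 35 genes (rows, cytosolic above dual above mitochondrial) and 8 extracts at 3 doses (columns). The widest ratios are those of Coptidis Rhizoma at medium and high dose; cytosolic rows are also above vehicle at the high dose of Scutellariae Radix and Zingiberis Rhizoma.

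Scutellariae Radix changed the cytosolic genes by less, but in 3 libraries of each dose. At 500 µg/mL against vehicle, 15 members rose and 1 fell at an adjusted p under 0.05 (edgeR's quasi-likelihood test on 54 libraries, adjusted over 16763 genes), where 23.6% of all genes were called, with 11.4% of all genes rising and 12.1% falling; without the 3 libraries that stood apart 18 members rose and 2 fell. The rises were in 11 of 17 cytosolic genes, both dual genes and 2 of 16 mitochondrial genes (MARS2 and NARS2). The cytosolic median log2 fold change was 0.24, the mitochondrial 0.08, and that of all genes -0.02. At the high against the low dose, 18 members rose and 2 fell, where 22.5% of all genes were called (10.7% rising, 11.7% falling): 11 cytosolic genes rose and QARS1 fell, both dual genes rose, and of the mitochondrial genes 5 rose (AARS2, EARS2, LARS2, MARS2 and VARS2) and WARS2 fell.

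The 5 mitochondrial rises depended on 1 library. Without Scutellariae Radix low dose replicate 3, which stood apart, 0 of 16 mitochondrial genes were called at the high against the low dose (edgeR), while 12 cytosolic genes and both dual genes rose and QARS1 fell. The log2 fold changes were then 0.09 for AARS2, 0.11 for EARS2, 0.10 for LARS2, 0.14 for MARS2 and 0.15 for VARS2, against 0.27, 0.23, 0.26, 0.19 and 0.23 with the library. WARS2 stayed at -0.20 and missed the threshold (adjusted p = 0.061 against 0.025 by edgeR), and it was called without all 3 libraries that stood apart. WARS2, AARS2 and VARS2 also lost the call without high-dose replicate 1 or 2, LARS2 without high-dose replicate 1 and MARS2 without high-dose replicate 2. NARS1 and FARSB joined the cytosolic calls and LARS1 left them, at 0.18 on the log2 scale against 0.31 ± 0.08 with the library. AARS2, the mitochondrial alanine enzyme, shows the library: it had 27.3, 25.7 and 23.4 CPM at the high dose, against 24.8, 24.6 and 14.6 CPM at the low dose. IARS1 had 442, 441 and 442.5 CPM at the high dose and 387, 395 and 253.5 CPM at the low dose. In a fit of these 6 libraries alone WARS1 was the 1 member called. Among the fits that left out each of the 6 libraries in turn, the number called ran from 14 to 20.

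WARS1 had 88.2, 95.1 and 92.1 CPM in vehicle, and with Scutellariae Radix 94.6, 95.9 and 86.4 CPM at the low, 110.1, 108 and 110.3 CPM at the medium and 132, 131 and 128 CPM at the high dose. The libraries of the 3 doses did not overlap each other, and those of vehicle and the low dose did. The log2 fold change was 0.51 ± 0.06 (SE) against vehicle and 0.52 ± 0.06 against the low dose, each with an adjusted p of 1.8e-09, and it was called in every fit that left out 1 library.

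GARS1 had 234, 231 and 228 CPM at the high dose, against 199.5, 199.2 and 176 CPM at the low dose and 172, 184 and 194 CPM in vehicle, with no overlap between the high dose and either (0.34 ± 0.05 against vehicle, adjusted p = 4e-06; 0.29 ± 0.05 against low dose, adjusted p = 7.1e-05). IARS1, with 442, 441 and 442.5 CPM at the high dose and 294, 334 and 352 CPM in vehicle, rose by 0.44 ± 0.07 (adjusted p = 8.3e-06). YARS1 had 231, 242 and 228 CPM at the high dose and 202, 200.5 and 193 CPM at the low dose (0.26 ± 0.04, adjusted p = 1.9e-05), again with separate ranges. MARS1 had 207, 203 and 184 CPM at the high dose and 175, 172 and 162 CPM at the low dose (0.24 ± 0.04, adjusted p = 2.8e-05).

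QARS1, the glutamine enzyme of the same complex, went the other way. It had 121, 121 and 118 CPM at the high dose, against 152.5, 141 and 162 CPM at the low dose and 147, 148 and 153 CPM in vehicle. The fall was -0.31 ± 0.05 against vehicle (adjusted p = 5e-06) and -0.32 ± 0.05 against the low dose (adjusted p = 2.9e-06), and it kept its call without each single library. The other genes called in both comparisons were AARS1 (0.29 ± 0.05 against vehicle), SARS1 (0.31 ± 0.05), EPRS1 (0.30 ± 0.06), TARS1 (0.26 ± 0.05), LARS1 (0.36 ± 0.08), HARS1 (0.16 ± 0.05), KARS1 (0.14 ± 0.04) and MARS2 (mitochondrial methionine; 0.25 ± 0.06). The call of TARS1 against the low dose (0.14) was lost in 5 of 6 fits that left out 1 library, at 0.13 to 0.16. NARS1 (0.30 ± 0.06) and NARS2 (0.16 ± 0.06) were called against vehicle only, and the difference between the comparisons was not tested. NARS2 lost that call in 4 of 6 such fits, at 0.13 to 0.17, and without the libraries that stood apart. HARS1 shares 437 exon bases on the opposite strand with HARS2. RARS1, FARSA, FARSB and VARS1 were called in neither; CARS1 was called against the low dose (0.17 ± 0.04) and missed the threshold against vehicle.

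At 100 µg/mL against vehicle 7 members rose (WARS1, IARS1, NARS1, GARS1, TARS1, MARS1 and AARS1) and QARS1 fell, where 9.53% of all genes were called (4.9% rising, 4.64% falling). The log2 fold changes were 0.24 ± 0.06 for WARS1 (adjusted p = 0.0035) and -0.19 ± 0.05 for QARS1 (adjusted p = 0.0078). Without vehicle replicate 1, the library with more ribosomal protein reads, WARS1 (0.23), NARS1 (0.22) and QARS1 (-0.19) were called, and IARS1 (0.24), TARS1 (0.18), GARS1 (0.17), AARS1 (0.13) and MARS1 (0.13) were not. Without all 3 libraries that stood apart, that one among them, 14 members were called. At 20 µg/mL 0 members were called (0.382% of all genes), with 5 at an unadjusted p under 0.05 (edgeR) and 2 called by DESeq2. The ratio of summed cytosolic to summed mitochondrial CPM was 4.588 to 4.755 at the low, 4.794 to 4.94 at the medium and 5.155 to 5.243 at the high dose, 3 ranges that did not overlap.

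**Figure D3:**
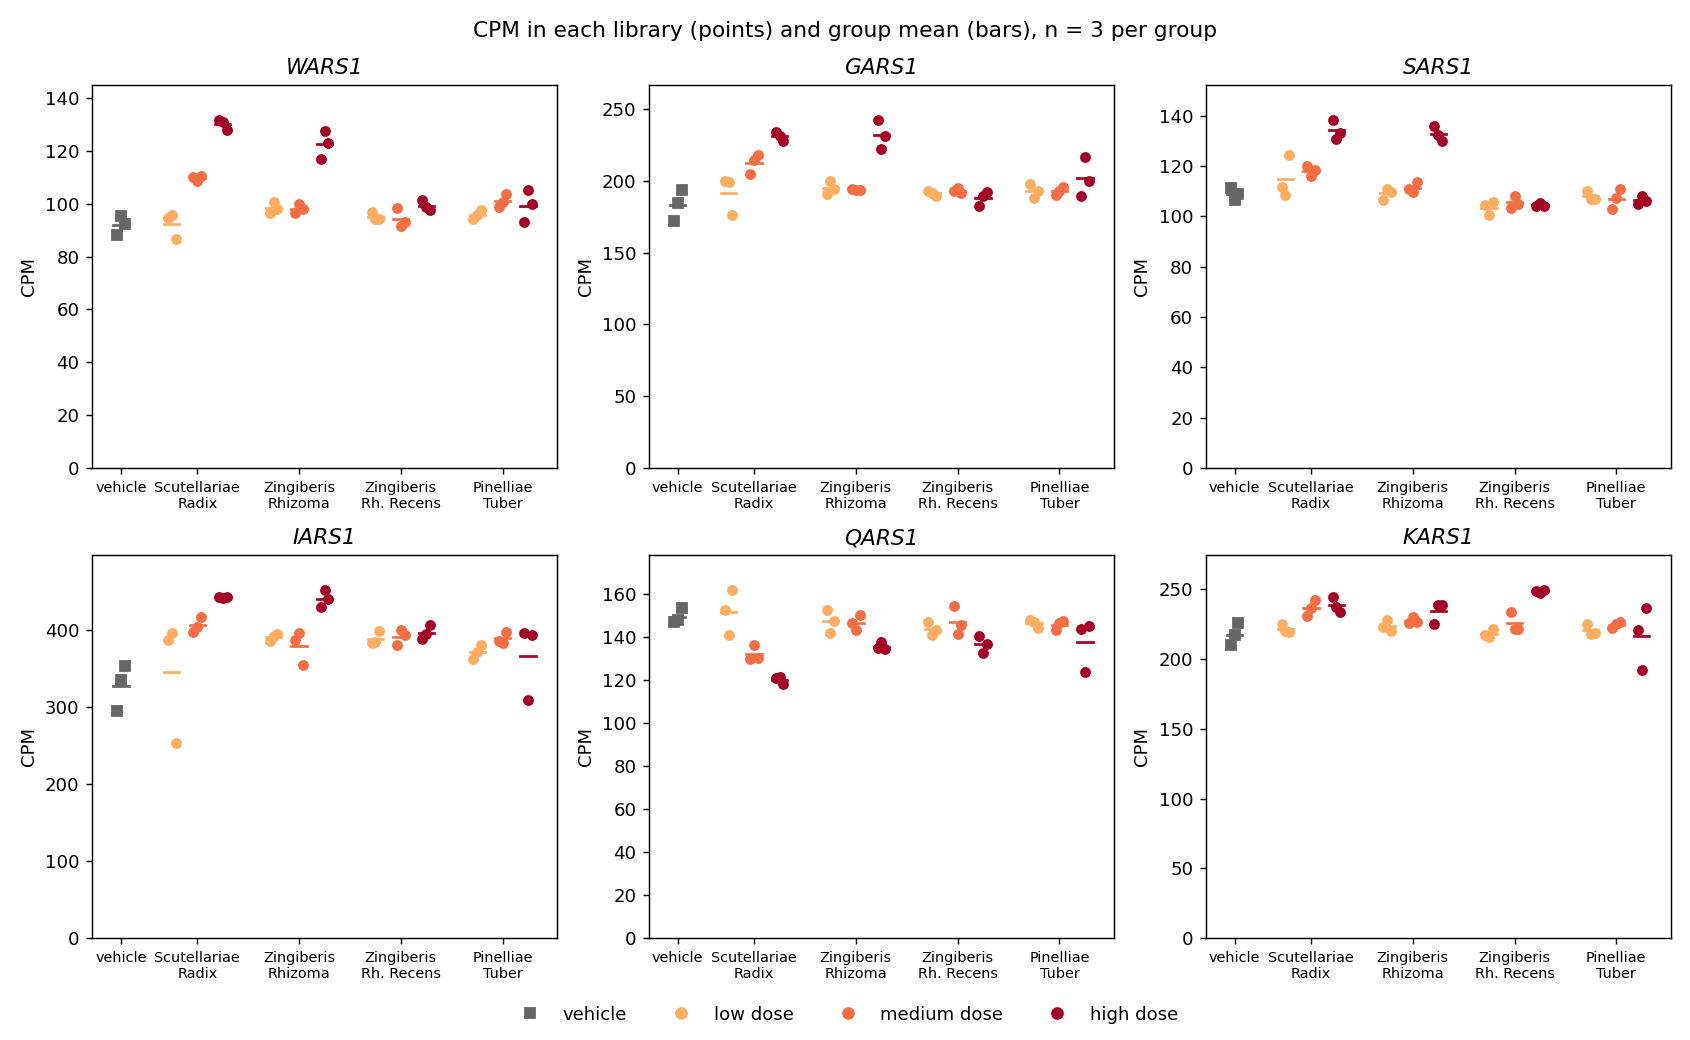
CPM of 6 genes in each library (points) and group mean (bars) for vehicle and 4 ethanol extracts at low, medium and high dose, n = 3 per group, vertical axes starting at 0. WARS1, GARS1 and SARS1 are highest at the high dose of Scutellariae Radix and Zingiberis Rhizoma, QARS1 is lowest at the high dose of Scutellariae Radix, and 1 low-dose Scutellariae Radix library stands apart for IARS1 at 253.5 CPM.

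Zingiberis Rhizoma, the dried ginger extract, gave a similar list at 500 µg/mL. Against vehicle 11 members rose and 1 fell, where 13.1% of all genes were called (6.79% rising, 6.33% falling); without the 3 libraries that stood apart 14 rose and 1 fell. Of the rises 10 were cytosolic (WARS1, AARS1, IARS1, NARS1, SARS1, LARS1, CARS1, EPRS1, TARS1 and MARS1) and 1 was GARS1; QARS1 fell and 0 of 16 mitochondrial genes were called, with 5 of the 16 at an unadjusted p under 0.05. Against the low dose 6 members rose and 0 fell, where 4.34% of all genes were called (2.3% rising, 2.04% falling): WARS1, SARS1, GARS1, CARS1, YARS1 and AARS1. Those 6 were 33.3% of the 18 that rose at the high against the low dose of Scutellariae Radix, and that 18 held 100% of the 6. With Scutellariae Radix 10.7% of all genes rose between those doses. How far the rising genes of both extracts overlap over all genes was not counted, so whether the overlap is particular to the members was not tested. Of the cytosolic and dual genes with the TGATGNAA match 3 of 7 rose at the high against the low dose of Zingiberis Rhizoma and 6 of 7 with Scutellariae Radix, against 2 of 9 and 5 of 9 without the match. Over all genes 2.3% and 10.7% rose. The share among all genes with the match was not counted, and a relation of the match to the rises was not tested. LARS1, VARS1 and YARS1 have no window and are in neither count. In the fit of the 6 high- and low-dose Zingiberis Rhizoma libraries alone 12 members rose, and without the 3 libraries that stood apart, none of them dried ginger, 11 did.

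WARS1 had 117, 127.5 and 123 CPM at the high dose of Zingiberis Rhizoma, against 96.6, 100.4 and 97.9 CPM at the low dose (0.34 ± 0.06, adjusted p = 2.6e-05). SARS1 had 136, 132.5 and 129.8 CPM at the high dose and 107, 111 and 109.8 CPM at the low dose (0.31 ± 0.05, adjusted p = 9.9e-05). GARS1 had 242, 222 and 231 CPM at the high dose and 191, 199.6 and 194 CPM at the low dose (0.28 ± 0.05, adjusted p = 0.00037). In these 3 genes every high-dose library lay above every low-dose library. CARS1 showed the same separation, with 79.2, 81.0 and 82.5 CPM at the high dose against 71.9, 72.8 and 70.0 CPM at the low dose (0.20 ± 0.04, adjusted p = 0.0014).

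Against vehicle, AARS1 had 165, 177 and 161 CPM at the high dose of Zingiberis Rhizoma and 126.5, 139 and 139 CPM in vehicle (0.29 ± 0.05, adjusted p = 5.8e-05). IARS1 had 429.7, 452 and 439 CPM at the high dose, against 294, 334 and 352 CPM in vehicle (0.41 ± 0.07, adjusted p = 8.7e-05). IARS1 was also at 385, 392 and 394.5 CPM at the low dose, above every vehicle library, and its difference between the doses (0.20 ± 0.07) was not called. The fall of QARS1 against vehicle was -0.16 ± 0.05 (adjusted p = 0.019), with 135, 138 and 135 CPM at the high dose against 147, 148 and 153 CPM in vehicle. QARS1, TARS1, EPRS1 and MARS1 lost the call in at least 2 of the fits that left out 1 library, vehicle replicate 1 among them.

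**Figure D4:**
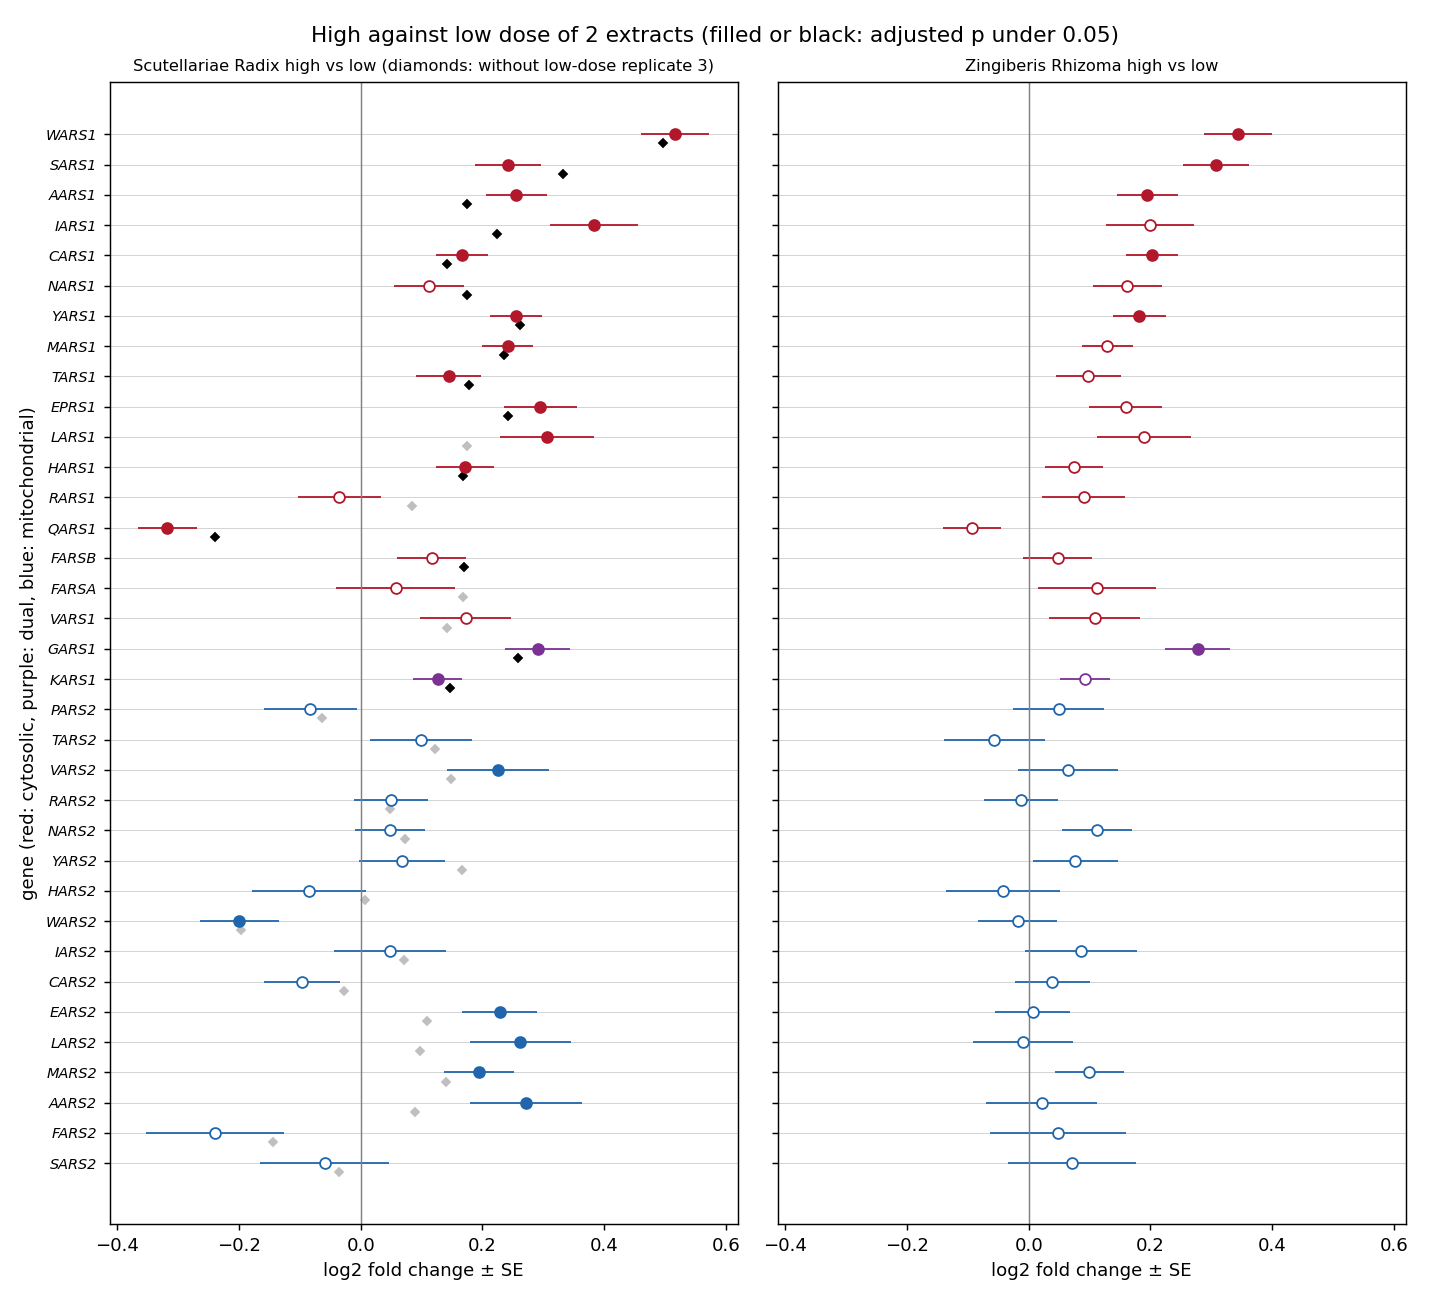
Log2 fold change with SE (horizontal axis) at the high against the low dose of Scutellariae Radix and Zingiberis Rhizoma for each gene; filled circles passed an adjusted p under 0.05, and diamonds give Scutellariae Radix without low-dose replicate 3 (black where called). WARS1 is at 0.52 and 0.34; the filled mitochondrial circles of Scutellariae Radix have grey diamonds.

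The fresh and dried ginger extracts share a code set and were compared at 500 µg/mL. In fresh relative to dried ginger 5 members fell and 0 rose, where 2.26% of all genes were called (0.626% rising, 1.63% falling): SARS1 (-0.35 ± 0.05, adjusted p = 2.4e-05), CARS1 (-0.26 ± 0.04), GARS1 (-0.31 ± 0.05), WARS1 (-0.31 ± 0.06) and AARS1 (-0.25 ± 0.05). Each fit that left out 1 of the 6 libraries called 5 members. The fit of these 6 libraries alone called 9, and the fit without the libraries that stood apart called 10. Fresh ginger itself at 500 µg/mL had 5 members above and 1 below vehicle, where 6.36% of all genes were called (2.99% rising, 3.36% falling): MARS2, KARS1, IARS1, WARS2 and NARS1 rose and QARS1 fell. MARS2 had 46.3, 44.3 and 41.2 CPM, against 35.6, 36.3 and 37.6 CPM in vehicle (0.24 ± 0.06, adjusted p = 0.0092), with separate ranges. Without vehicle replicate 1 none of the 6 was called, with log2 fold changes of 0.24 for MARS2 (adjusted p = 0.052, edgeR), 0.22 for WARS2, 0.19 for IARS1, 0.16 for NARS1, 0.15 for KARS1 and -0.16 for QARS1. Without all 3 libraries that stood apart 10 members were called, 9 higher and 1 lower. Against its low dose KARS1 alone rose, with 249, 247.5 and 249.6 CPM at the high dose and 217.5, 215 and 221.5 CPM at the low dose (0.20 ± 0.04, adjusted p = 0.0068), where 0.489% of all genes were called (0.185% rising, 0.304% falling); without high-dose replicate 1 it was not called, at 0.19 (adjusted p = 0.054, edgeR).

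Pinelliae Tuber at 500 µg/mL had TARS1 (0.18 ± 0.05, adjusted p = 0.041) and GARS1 (0.18 ± 0.05, adjusted p = 0.043) above vehicle, where 5.12% of all genes were called (2.23% rising, 2.89% falling). GARS1 had 189, 216 and 199.8 CPM there, against 172, 184 and 194 CPM in vehicle, and the ranges overlapped. Both calls were lost without high-dose replicate 2, the library with 14.3% mitochondrial reads, at 0.06 for GARS1 and 0.10 for TARS1. Against the low dose 0 members were called (1.78% of all genes); 10 were at an unadjusted p under 0.05, and the smallest adjusted p was 0.056 for VARS1 (0.26 ± 0.07). In high-dose replicate 2 VARS1 had 309 CPM, against 239 CPM in both other libraries, and IARS2 had 77.0 CPM, against 153 and 149.6 CPM. Leaving out that replicate also gave 0 calls, but leaving out replicate 1 gave 10 and replicate 3 gave 5.

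Scutellariae Radix and Pinelliae Tuber share a code set too. At 500 µg/mL 14 members were higher and 3 lower in Scutellariae Radix than in Pinelliae Tuber, where 22.8% of all genes were called (9.9% higher, 12.9% lower). The higher ones were WARS1 (0.36 ± 0.06, adjusted p = 3.6e-06), YARS1, SARS1, EPRS1, AARS1, HARS1, NARS1, MARS1, LARS1, IARS1, GARS1, KARS1, RARS1 and IARS2, and the lower ones QARS1 (-0.21 ± 0.05), SARS2 and FARS2. Without the libraries that stood apart 15 were higher and 1 lower, and in the fit of these 6 libraries alone 0 were called. The calls of IARS2, SARS2, FARS2, RARS1, KARS1, LARS1 and IARS1 were lost without Pinelliae Tuber high-dose replicate 2. GARS1 kept its call there but lost it in 4 of the 6 fits that left out 1 library, at 0.09 to 0.16.

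With the water extracts few members were called. Without the libraries that stood apart more were called for both formulas at high dose, with the counts given in the closing section. With Sayeok-tang at 500 µg/mL IARS1 alone was called, with 418, 390.1 and 382 CPM against 294, 334 and 352 CPM in vehicle (0.25 ± 0.07, adjusted p = 0.0496), where 2.85% of all genes were called (1.26% rising, 1.58% falling); it was not called in 5 of 6 fits that left out 1 library. That call is not read as an excess over all genes. Bojungikgi-tang had 0 members called at high dose (0.626% of all genes), with 2 at an unadjusted p under 0.05 and IARS1 again the nearest (0.21 ± 0.08, adjusted p = 0.29). High against low dose gave 0 members for Sayeok-tang (0.382% of all genes, 5 members at an unadjusted p under 0.05) and 0 for Bojungikgi-tang (0.0656%, 1 member). Set against each other at 500 µg/mL, the 2 formulas had 0 members called and 0.00597% of all genes.

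At medium dose 0 members were called against vehicle for Sayeok-tang (0.793% of all genes), Bojungikgi-tang (1.49%), fresh ginger (2.16%), dried ginger (1.06%) and Pinelliae Tuber (2.11%). At low dose likewise 0 were called for Sayeok-tang (3.3%), Bojungikgi-tang (0.424%), fresh ginger (3.1%), dried ginger (1.99%) and Pinelliae Tuber (0.549%). At an unadjusted p under 0.05 there were 3 to 9 members in each (edgeR). The percentages above are for the adjusted threshold, so these unadjusted counts are not read as an excess over all genes. Counts by DESeq2 in these comparisons ran from 0 to 3 members. The log2 fold change of IARS1 lay between 0.15 (Pinelliae Tuber low dose) and 0.21 (fresh ginger medium dose) in these 10 comparisons, which share the 3 vehicle libraries; none was called.

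Zizyphi Fructus had no member more than 1.5-fold from vehicle at any dose, where 1.2% of all genes lay above and 2.28% below at 500 µg/mL, 0.847% and 1.21% at 100 µg/mL, and 0.925% and 1.24% at 20 µg/mL. In the fit of its 3 libraries as 1 group against vehicle 0 members were called (2.78% of 15318 genes), with 7 at an unadjusted p under 0.05 (edgeR). WARS2, the mitochondrial tryptophan enzyme, had 19.9, 20.4 and 20.3 CPM in vehicle, and 24.3, 24.9 and 24.1 CPM at low, medium and high dose (0.23 ± 0.06, adjusted p = 0.059). FARSA had 73.1, 66.2 and 65.8 CPM in vehicle, and 58.8, 59.6 and 59.8 CPM at low, medium and high dose (-0.25 ± 0.06, adjusted p = 0.059). Both sets of ranges were separate and neither passed the threshold. VARS1 (-0.13 ± 0.05) and IARS1 (0.15 ± 0.06) followed. High over low dose ran from -0.25 (YARS2) to 0.17 (VARS2).

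Genes of the amino acid response were read beside the synthetases. Of 24 tested, 15 rose and 0 fell at the high against the low dose of Scutellariae Radix. There 10.7% of all genes rose and 11.7% fell. The median of the 24 was 0.53 on the log2 scale against -0.02 over all genes. Against vehicle 17 rose and 0 fell, where 11.4% of all genes rose and 12.1% fell. ASNS, the asparagine synthetase, averaged 139 ± 5.27 CPM at the high dose and 72.5 ± 5.30 CPM at the low dose (SD, n = 3 each), a log2 fold change of 0.96 ± 0.06 (adjusted p = 1.7e-16). TRIB3, a pseudokinase in the ATF4 feedback, rose by 1.00 ± 0.07, the cystine transporter gene SLC7A11 by 1.61 ± 0.12 and the transcription factor gene ATF3 by 1.49 ± 0.14. With Zingiberis Rhizoma 12 of the 24 rose and 0 fell at the high against the low dose (median 0.40). Over all genes 2.3% rose there and 2.04% fell. Those 12 were led by ASNS (1.00 ± 0.06), CHAC1, a glutathione-degrading enzyme (1.57 ± 0.16), SLC7A11 (1.19 ± 0.12) and TRIB3 (0.66 ± 0.07). With fresh ginger 0 of 24 were called between the doses (0.489% of all genes), and 13 were lower in fresh than in dried ginger (1.63% of all genes). At the high dose of Coptidis Rhizoma 22 of 24 lay more than 1.5-fold above vehicle, where 17.9% of all genes did. The median of the 24 was 2.03, with CHAC1 at 4.93 and ASNS at 3.78, and only ATF5 was below 0, at -0.54. No relation between this list and the synthetases was tested.

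Interferon genes were also read, and their direction differed between extracts. Of 15 tested, 14 fell and 0 rose at the high against the low dose of Scutellariae Radix (median -0.82) while WARS1 rose. There 11.7% of all genes fell and 10.7% rose. Against vehicle 14 fell, where 12.1% of all genes did. IRF9, part of the interferon signalling complex, averaged 6.65 ± 1.17 CPM at the high dose and 15.0 ± 1.22 CPM at the low dose (-1.16 ± 0.14, adjusted p = 1.5e-08), and MX1, an antiviral GTPase, fell by 1.47 on the log2 scale; GBP2 (-0.69 ± 0.08) and IFI44 (-0.98 ± 0.14) were the others with the smallest p. With Zingiberis Rhizoma 0 of 15 were called at the high against the low dose (4.34% of all genes). By the same edgeR test 1 of the 15 was at an unadjusted p under 0.05, and WARS1 rose there too. At the high dose of Coptidis Rhizoma 14 of 15 lay more than 1.5-fold above vehicle and GBP2 below it (-0.74), with a median of 1.92 and MX1 at 2.68. Over all genes 17.9% lay more than 1.5-fold above vehicle and 15% below.

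Partners of the synthetases changed little. Of 9 genes for complex scaffolds and tRNA charging, MTFMT, which formylates the mitochondrial initiator methionyl-tRNA, fell at the high dose of Scutellariae Radix against vehicle and against low dose (-0.23 ± 0.08 each, adjusted p = 0.026 and 0.036), and the other 8 were not called. Over all genes 12.1% fell against vehicle and 11.7% against the low dose. For Zingiberis Rhizoma 0 of 9 were called against vehicle (13.1% of all genes) or against the low dose (4.34%). At the high dose of Coptidis Rhizoma the scaffold genes AIMP1, AIMP2 and EEF1E1 had log2 ratios of 0.01, 0.18 and -0.06. GATB, a subunit of the mitochondrial amidotransferase that makes glutaminyl-tRNA, was the 1 of 9 past 1.5-fold, at -0.60. There 17.9% of all genes lay more than 1.5-fold above vehicle and 15% below. Of 5 cytosolic elongation factors EEF1G fell (-0.18 ± 0.06, adjusted p = 0.042) and of 4 mitochondrial ones GFM1 rose (0.26 ± 0.08, adjusted p = 0.012) at the high against the low dose of Scutellariae Radix. Between those doses 10.7% of all genes rose and 11.7% fell. For Zingiberis Rhizoma 0 of 5 and 0 of 4 were called. None of the gene lists read beside the members was refitted without the libraries that stood apart.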

How the data were processed

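RNA-seq libraries were prepared with a strand-specific kit and sequenced as 100-base pairs, per the labels' protocols. Per the submitters' processing notes, FastQC 0.11.9, Trim Galore 0.6.5, STAR 2.7.3a, RSEM 1.3.3 and hg38 were used; no source used here gives the strand setting or annotation release. The authors deposited RSEM expected counts for 60675 genes; 210 columns of other samples were not used. Expected counts were rounded, filtered with filterByExpr (16763 genes kept) and fitted in edgeR 4.0.16 (R 4.3.3) with TMM scaling, 54 libraries in 19 groups and the quasi-likelihood test, with Benjamini-Hochberg adjustment over all genes at 0.05. Each SE was taken as the absolute log2 fold change divided by the square root of the F statistic. The single-library extracts were left out of that fit; their CPM ratios use a pseudocount of 0.5 CPM, and intervals cover counting error only. Gene symbols are current names, with those of GENCODE 29 where an ID had none. Transcript lengths and exon overlaps are from GENCODE 29, and promoter positions are those of the RefSeq windows. Members and lists were chosen with earlier results of these data known. Counts at an unadjusted p under 0.05 are given without the share of all genes at that threshold, and are not read as an excess. Every member is accounted for: those with an adjusted p under 0.05 are named, and values per library are given for up to 4 members with the smallest p in each high-dose comparison, as are up to 4 genes of each other list. The procedure was tested on simulated data. Alternatives were DESeq2 1.42.0, other scaling, no filter, a replicate block and left-out libraries. The main tests did not pair libraries by replicate number, and whether same-numbered libraries were handled together was not settled.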

Additional observations from a re-analysis of the deposited data

Results flagged for a closer look

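Differences between extracts in the response to dose were tested for pairs that share a code set, as the difference of the log2 fold changes at the high against the low dose (edgeR's quasi-likelihood test, adjusted over all genes). For Scutellariae Radix against Pinelliae Tuber, where 9.58% of all genes were called, the differences were 0.39 for WARS1 (adjusted p = 0.000675), 0.33 for EPRS1 (0.00805), 0.39 for LARS1 (0.0191), 0.34 for IARS1 (0.025), 0.22 for AARS1 (0.0404) and -0.29 for QARS1 (0.0035). Without the 3 libraries that stood apart WARS1 (0.49) and QARS1 (-0.23) were still called, AARS1 (0.15), EPRS1 (0.17), IARS1 (0.13) and LARS1 (0.12) were not, and GARS1, SARS1 and YARS1 were called in addition. For dried against fresh ginger, where 0.644% of all genes were called, CARS1 differed by 0.25 (adjusted p = 0.0366), and without those libraries AARS1, GARS1, LARS1, SARS1 and WARS1 were called with it. With no low-count filter 0 members were called for the ginger pair, CARS1 then differing by 0.25, and 4 for the other pair, which lost AARS1 (0.23) and QARS1 (-0.28). With DESeq2's size factors in edgeR 1 (CARS1) and 7 were called, HARS1 being added.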

How the results depend on the processing

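Values here are members called, against vehicle unless stated, and the causes of the changes were not tested. Leaving out 1 library gave 14 to 18 for Scutellariae Radix high dose (3 to 8 medium, 0 to 1 low, 14 to 20 high against low), 8 to 11 for dried ginger high (0 to 1 low, 5 to 6 high against low), 0 to 4 for fresh ginger high (0 to 1 medium, low, and high against low), 0 to 4 for Pinelliae Tuber high (0 to 10 high against low), 0 to 1 for Sayeok-tang high, 5 to 5 for fresh against dried ginger, 12 to 19 for Scutellariae Radix against Pinelliae Tuber and 0 to 4 for Zizyphi Fructus. Without a low-count filter there were 0 for Sayeok-tang high, 1 for Sayeok-tang low, 1 for fresh ginger high, 0 for fresh ginger high against low, 7 for dried ginger high, 3 for dried ginger high against low, 0 for Pinelliae Tuber high, 1 for Pinelliae Tuber high against low, 2 for Scutellariae Radix medium, 13 for Scutellariae Radix high against low, 3 for fresh against dried ginger, 10 for Scutellariae Radix against Pinelliae Tuber and 2 for Zizyphi Fructus. Without the 3 libraries that stood apart there were 4 and 4 for Sayeok-tang high and low, 1 and 3 for Bojungikgi-tang high and medium, 10, 4 and 3 for fresh ginger high, medium and low, 2 for fresh ginger high against low, 2 and 3 for dried ginger medium and low, 11 for dried ginger high against low, 4 and 2 for Pinelliae Tuber medium and low, 14 and 2 for Scutellariae Radix medium and low, 10 for fresh against dried ginger and 4 for Zizyphi Fructus. With only the libraries compared there were 0 for Sayeok-tang high, 1 for fresh ginger high, 2 for fresh ginger high against low, 12 for dried ginger high against low, 0 for Pinelliae Tuber high, 1 for Scutellariae Radix high against low, 9 for fresh against dried ginger and 0 for Scutellariae Radix against Pinelliae Tuber. DESeq2 gave 2 and 2 for Sayeok-tang high and low, 3 and 1 for fresh ginger medium and low, 2 for fresh ginger high against low, 1 for dried ginger low, 1 for Pinelliae Tuber medium, 1 for Pinelliae Tuber high against low, 2 for Scutellariae Radix low and 1 for Zizyphi Fructus; its size factors in edgeR gave 1 for Sayeok-tang low. The replicate block gave 0 for Sayeok-tang high, and within code sets 2 for fresh ginger high against low. Same-numbered libraries correlated between -0.339 and 0.201 in their deviations from the group means. With so few libraries per group these correlations cannot exclude that same-numbered libraries were handled together. All 60 libraries in 1 fit gave 16 for Coptidis Rhizoma. No value changed sign among those with a call, and of 94 single-gene calls 55 held in each fit that left out 1 library. Single libraries per dose limit Coptidis Rhizoma and Zizyphi Fructus to counting error.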
